A study of Mus musculus with 10 samples.

Results

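DNA repair and damage signalling genes were looked up in the ARID2 target lists of mouse spermatogenic cells. The set held 58 genes of the 21774 protein-coding genes of the mouse annotation. They were chosen by their known roles in repair, but with earlier results of these data known. Their shares beside those of all genes are therefore a description and not an independent finding. A member was counted as listed at an age when a row of that age's list carried its symbol or a synonym that belonged to no other gene. The members were assigned to 7 pathways, with 17 genes in homologous recombination, 11 in damage signalling, 8 in the Fanconi anaemia pathway, 4 in mismatch repair, 7 in nucleotide excision repair, 6 in base excision and DNA strand-break repair on one strand, and 5 in end joining.

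The study mapped ARID2 and BRG1 by CUT&RUN, in which an antibody directs a nuclease to release the DNA under a bound protein for sequencing. ARID2 is the subunit that defines the PBAF form of the SWI/SNF nucleosome remodeler, and BRG1 is the catalytic ATPase of that remodeler. CD1 mice received WIN 18,446, an inhibitor of retinoic acid synthesis, from P1 to P10 at 100 µg/g and retinoic acid at P11, which synchronises spermatogenesis. Cells were harvested 17 days (P28) or 17.5 days (P28.5) after the retinoic acid dose, with 2 ARID2 libraries, 2 BRG1 libraries made with different antibodies and 1 library without primary antibody at each age. No gene was deleted in these animals, both ages shared the inhibitor and the retinoic acid, and each preparation was a mixture of spermatogenic cells enriched for late prophase-I (pachytene and diplotene) and metaphase spermatocytes. The data used here are 2 lists of transcription start sites (TSSs) that the authors placed in cluster-1, the ARID2-occupied cluster, one per age. The lists were made from averaged replicates and hold no signal, so listing is a yes or no value without a replicate spread, and the sequencing depth behind a single TSS is not known. P-values were therefore not computed.

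DNA double-strand breaks can be rejoined end to end or copied from an intact template by homologous recombination, which is the route used at the programmed breaks of meiotic prophase. The ATM and ATR kinases sense breaks and exposed strands and mark the surrounding chromatin, and in male meiosis ATR, TOPBP1 and MDC1 also mark the unsynapsed sex chromosomes for silencing. The Fanconi anaemia pathway removes crosslinks between strands, mismatch repair corrects copying errors, and the excision pathways replace damaged bases or short stretches around bulky lesions.

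The promoters of 6 members are shown here to let the reader see what surrounds a listed position, or in 1 case an unlisted start. They comprise 2 minus-strand genes reached through a neighbour (Brca1, Xrcc4), a gene listed at both ages (Pms2), a gene listed at P28.5 but not at P28 (Brca2), a gene listed at P28 but not at P28.5 (Fancl), and a gene far from any listed position (Topbp1). The sequences are from RefSeq (GRCm38.p6), run 5′ to 3′ on the gene's own strand from 250 bases before the start to 50 bases after, and carry in capitals the matches on either strand to 7 motifs. The windows are chr11:101551906-101552205 (minus strand) for Brca1, chr13:90089559-90089858 (minus strand) for Xrcc4, chr5:143909751-143910050 (plus strand) for Pms2, chr5:150522371-150522670 (plus strand) for Brca2, chr11:26386834-26387133 (plus strand) for Fancl and chr9:103305077-103305376 (plus strand) for Topbp1.
Brca1: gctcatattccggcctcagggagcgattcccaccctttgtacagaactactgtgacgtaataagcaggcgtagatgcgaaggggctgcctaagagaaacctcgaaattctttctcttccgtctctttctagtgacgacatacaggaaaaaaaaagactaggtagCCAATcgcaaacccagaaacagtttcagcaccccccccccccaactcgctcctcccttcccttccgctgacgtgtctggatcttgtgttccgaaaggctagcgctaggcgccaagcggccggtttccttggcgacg
Xrcc4: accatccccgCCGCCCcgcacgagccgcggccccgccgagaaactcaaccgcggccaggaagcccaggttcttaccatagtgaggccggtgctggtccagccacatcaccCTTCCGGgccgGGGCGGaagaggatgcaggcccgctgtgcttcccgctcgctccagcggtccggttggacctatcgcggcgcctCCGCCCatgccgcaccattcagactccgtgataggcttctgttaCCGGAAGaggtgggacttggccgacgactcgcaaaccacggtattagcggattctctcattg
Pms2: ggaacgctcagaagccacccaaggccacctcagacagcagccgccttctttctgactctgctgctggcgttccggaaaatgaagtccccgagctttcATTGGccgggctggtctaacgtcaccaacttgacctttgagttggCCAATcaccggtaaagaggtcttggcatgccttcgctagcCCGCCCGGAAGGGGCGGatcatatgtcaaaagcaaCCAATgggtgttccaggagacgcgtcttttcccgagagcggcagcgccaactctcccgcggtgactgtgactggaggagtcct
Brca2: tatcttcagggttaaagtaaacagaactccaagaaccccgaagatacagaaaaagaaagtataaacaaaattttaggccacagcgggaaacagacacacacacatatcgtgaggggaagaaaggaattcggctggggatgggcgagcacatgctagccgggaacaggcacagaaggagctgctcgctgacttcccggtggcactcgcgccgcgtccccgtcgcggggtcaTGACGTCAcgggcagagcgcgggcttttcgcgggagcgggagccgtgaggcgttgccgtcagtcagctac
Fancl: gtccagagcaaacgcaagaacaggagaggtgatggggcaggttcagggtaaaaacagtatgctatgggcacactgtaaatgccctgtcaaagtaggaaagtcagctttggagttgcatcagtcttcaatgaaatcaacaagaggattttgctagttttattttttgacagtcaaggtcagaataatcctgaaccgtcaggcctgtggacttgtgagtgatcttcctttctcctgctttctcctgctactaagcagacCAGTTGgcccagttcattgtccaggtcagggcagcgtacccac
Topbp1: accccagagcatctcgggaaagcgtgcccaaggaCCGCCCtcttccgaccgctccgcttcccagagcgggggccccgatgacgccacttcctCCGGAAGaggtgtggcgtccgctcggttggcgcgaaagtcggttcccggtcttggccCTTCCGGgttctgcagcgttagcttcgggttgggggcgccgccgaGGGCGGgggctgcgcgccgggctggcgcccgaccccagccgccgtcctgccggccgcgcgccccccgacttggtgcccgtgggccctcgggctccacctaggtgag
Counted from the first base shown, the start of each gene is base 251. The Brca1 window held 2 listed positions, at bases 99 and 94, both carrying the name Nbr1. Its 1 motif match was the NF-Y box at base 165, between those positions and the Brca1 start. The Xrcc4 window held 1 listed position, at base 192 under the name Tmem167, and 5 matches to the ETS core and the Sp/KLF box. The Pms2 window held 4 listed positions, at base 151 under the name Aimp2 and at bases 241, 250 and 251 under its own name. In that window an ETS core at base 187 overlapped an Sp/KLF box at base 183 and adjoined another at base 194, so the 3 matches form one run of capitals. The Brca2 start was listed at P28.5 with a cyclic-AMP response element (CRE) at base 231, and the Fancl start at P28 with a MYB site at base 258. The Topbp1 window held no listed position but 4 matches to the same ETS core and Sp/KLF box letters.

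At P28, 18 of 58 members (31%) were listed by name, compared with 16.8% of all protein-coding genes. At P28.5 the number was again 18 of 58 (31%), compared with 11.6% of all protein-coding genes. At both ages 14 members (24.1%) were listed, where 8.48% of all protein-coding genes were. These were Mre11a, Mdc1, Fanci, Msh6, Pms2, Ercc1, Ercc2, Ogg1, Ung, Parp1, Parp2, Xrcc1, Xrcc6 and Prkdc. The members listed at P28 but not at P28.5 were Rad54b, Rad18, Fancl and Xpa, that is 4 of 58 (6.9%) against 8.33% of all protein-coding genes. The members listed at P28.5 but not at P28 were Brca2, Rbbp8, Rad52 and Lig3, again 4 of 58 (6.9%) against 3.13% of all protein-coding genes.

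**Figure D1:**
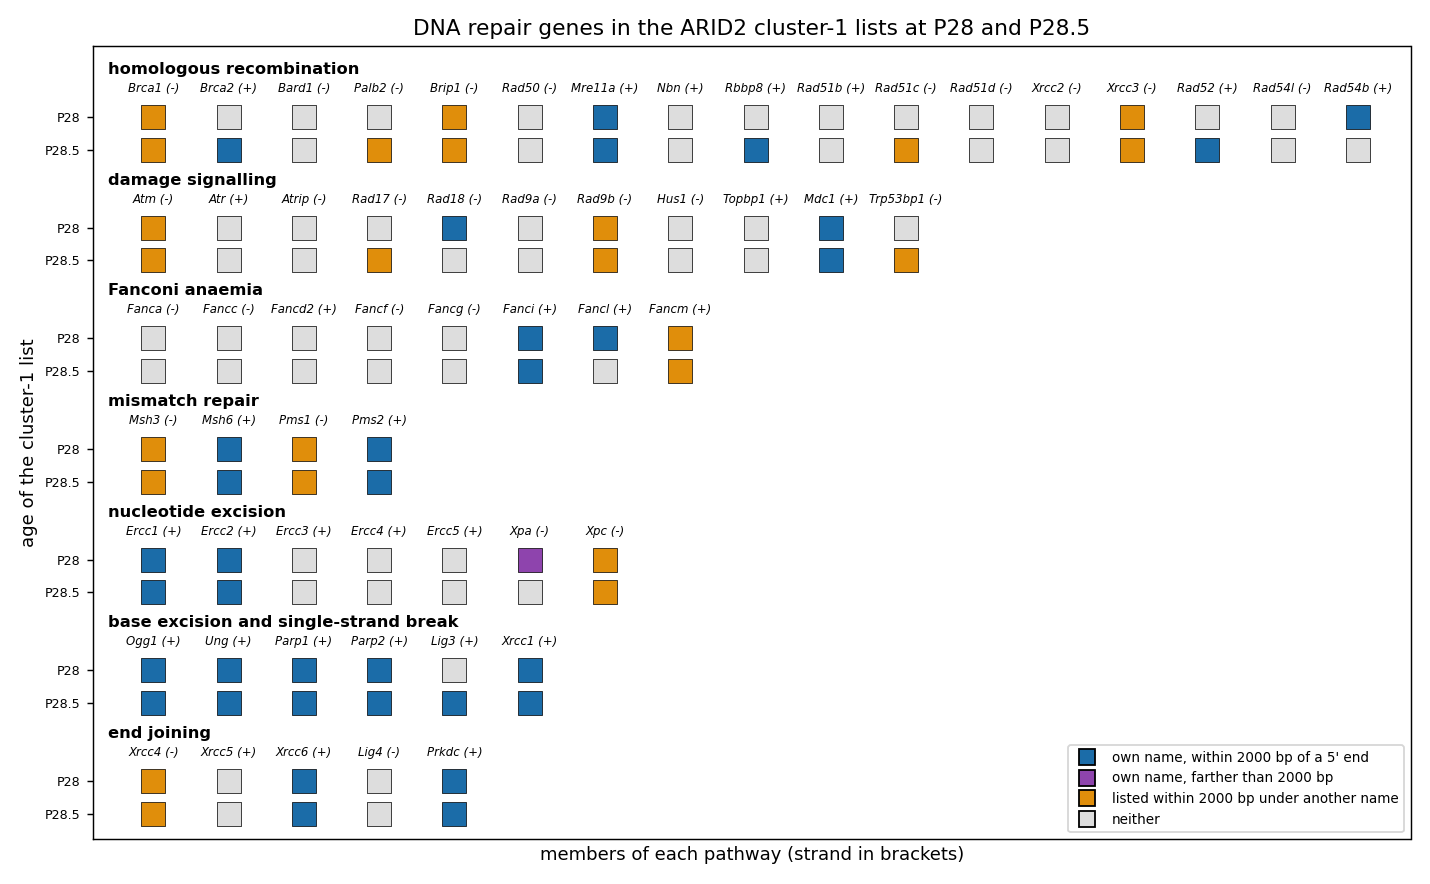
Each square is 1 of the 58 repair genes at P28 (upper) or P28.5 (lower), grouped by pathway, with the strand in brackets. Blue marks a gene listed under its own name within 2000 bp of one of its 5′ ends, purple a gene listed farther away (Xpa at P28), orange a gene with a listed position within 2000 bp under another name, and grey neither. All 4 mismatch repair genes are coloured at both ages, and 5 of the 8 Fanconi genes are grey at both.

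The counts by name differed with the strand of the gene. When the positions were compared with the RefSeq annotation, 4894 rows of the P28 list and 4361 rows of the P28.5 list coincided with starts of plus-strand transcripts, whereas 9 and 8 coincided with starts of minus-strand transcripts. Instead, minus-strand transcripts matched at their 3′ ends, the lower coordinate, in 1485 rows of the P28 list and 123 rows of the P28.5 list. A further 5170 and 4026 rows fell on no annotated transcript end. Starts of minus-strand genes are therefore hardly represented, and absence of such a gene from a list is not evidence about ARID2 at its start. Of the 30 plus-strand members, 16 (53.3%) were in the P28 list and 18 (60%) in the P28.5 list, against 26% and 20.4% of all plus-strand protein-coding genes. Of the 28 minus-strand members, 2 (7.14%) were in the P28 list and 0 in the P28.5 list, against 7.61% and 2.86% of all minus-strand protein-coding genes. Plus-strand members thus exceeded the plus-strand share at both ages, whereas minus-strand members did not exceed theirs.

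To see which members had a listed start beside them regardless of the name on the row, the listed positions within 2000 bp of any annotated 5′ end of each gene were collected. By this count 27 members (46.6%) had a listed position at P28 and 32 (55.2%) at P28.5, against 17.3% and 14.8% of all protein-coding genes. At both ages 24 members (41.4%) had one, against 10.9%. There were 3 members (5.17%) with one at P28 alone (Rad54b, Rad18, Fancl), against 6.37% of all protein-coding genes, and 8 members (13.8%) with one at P28.5 alone, against 3.86%. The latter were Brca2, Palb2, Rbbp8, Rad51c, Rad52, Rad17, Trp53bp1 and Lig3. The members just inside and just outside the window were Trp53bp1, 700 bp from a listed position at P28.5, and Atr, 2179 bp from one at P28.

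Minus-strand members came within the window mostly through a head-to-head neighbour. Of these 28 genes, 10 (35.7%) had a listed position within 2000 bp at P28 and 13 (46.4%) at P28.5, against 9.58% and 8.62% of all minus-strand protein-coding genes. A plus-strand 5′ end lay within 1000 bp of 18 of them. Of those 18, 10 (55.6%) were near a listed position at P28 and 13 (72.2%) at P28.5, against 37.4% and 36.2% of minus-strand protein-coding genes with such a neighbour. Of the 10 without such a neighbour, 0 were near a listed position at either age, against 1.8% and 0.892%. Head-to-head arrangement was common in the set as a whole, with an opposite-strand 5′ end within 1000 bp of 33 members (56.9%) compared with 21.7% of all protein-coding genes. At a shared promoter the list cannot tell which of the 2 genes, if either alone, the ARID2 signal belongs to.

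**Figure D2:**
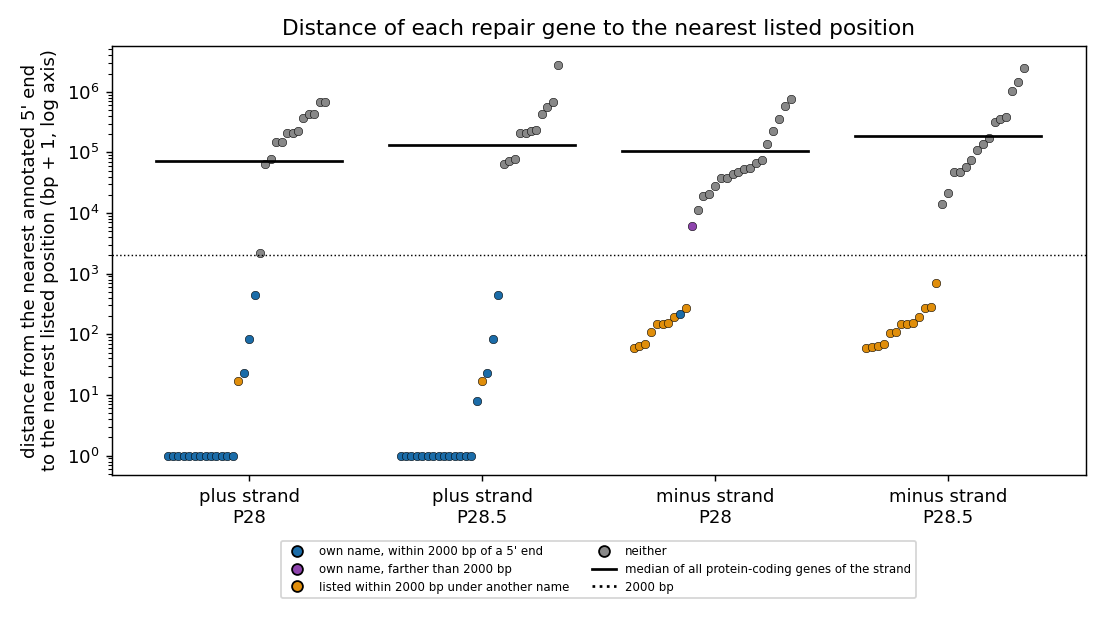
Distance in bp (plus 1, log axis) from the nearest annotated 5′ end of each of the 58 repair genes to the nearest listed position, by strand and age, with black bars for the median of all protein-coding genes of that strand and a dotted line at 2000 bp. Plus-strand members lie either at 446 bp or closer, or beyond 2000 bp, and minus-strand members come no closer than 59 bp.

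Plus-strand members had a median distance to the nearest listed position of 53 bp at P28 and 11.5 bp at P28.5. The medians for all plus-strand protein-coding genes were 71658 bp and 132420 bp. For minus-strand members the medians were 24200 bp and 17687 bp, against 104767 bp and 183306 bp. The members thus fell into a near and a far class on both strands, with the 2 medians of the plus strand inside the near class.

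**Figure D3:**
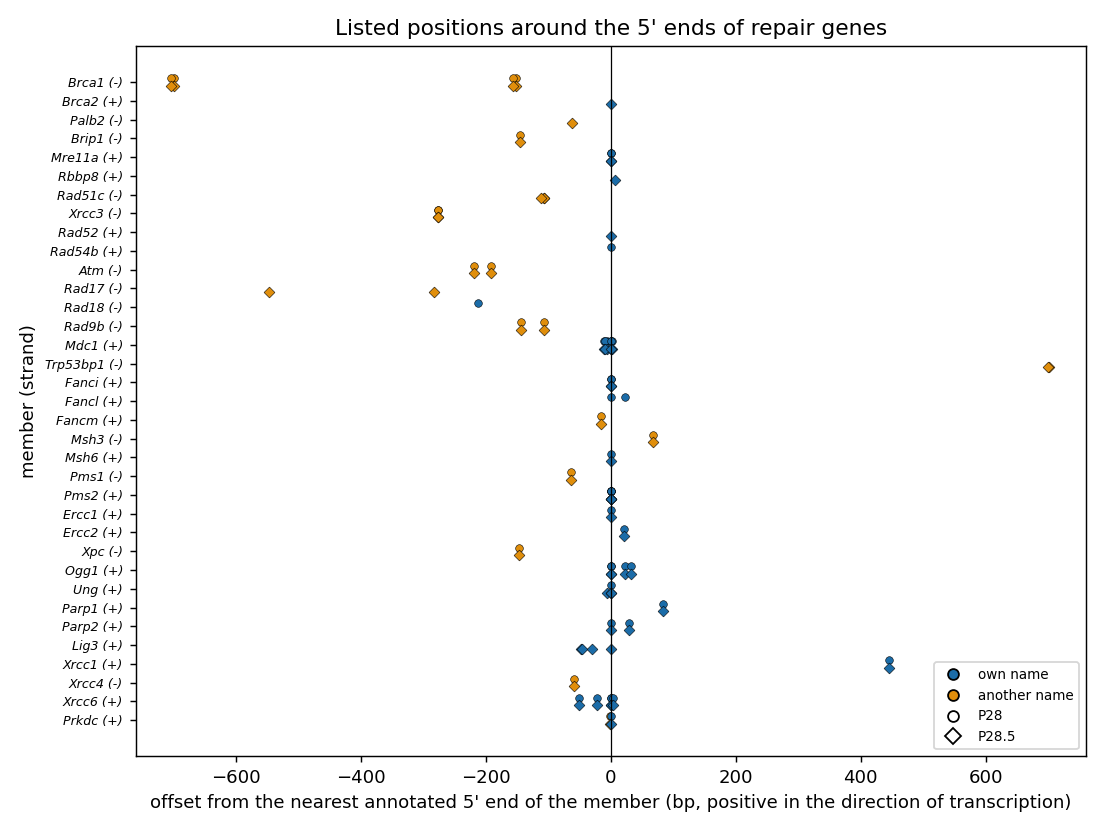
Offset in bp of each listed position from the nearest annotated 5′ end of the member, positive in the direction of transcription, for the 35 members with a listed position within 2000 bp at either age. Circles are P28, diamonds P28.5, blue rows carry the member's own name and orange rows another name. Own-name positions cluster at 0, and those under another name lie mainly upstream.

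Homologous recombination genes were the largest pathway and were unevenly represented. By name, 2 of 17 (11.8%) were in the P28 list and 4 of 17 (23.5%) in the P28.5 list, against 16.8% and 11.6% of all protein-coding genes, so that the P28 share lay below the background. By position the counts were 5 of 17 (29.4%) and 9 of 17 (52.9%), against 17.3% and 14.8%. Mre11a, which encodes the nuclease of the complex that first processes breaks, was listed at both ages at 2 of its annotated 5′ ends (chr9:14784654 and chr9:14784719). The genes of its partners in that complex, Rad50 and Nbn, were 139950 bp and 206143 bp from the nearest listed position at both ages. Rad50 lies on the minus strand, where the lists hold few starts, and Nbn on the plus strand. Rbbp8, whose product promotes the resection of break ends with that complex, was listed at P28.5, 7 bp inside an annotated 5′ end, and at P28 its nearest listed position was 366734 bp away.

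Brca2, a mediator of strand exchange on resected DNA, was listed at P28.5 exactly at an annotated 5′ end (chr5:150522621). At P28 the nearest listed position to Brca2 was 151123 bp away, under the name Pds5b. Brca1, a ubiquitin ligase subunit that acts upstream of BRCA2, lies on the minus strand and had 4 listed positions named Nbr1 at both ages, the closest 152 bp upstream of its start (chr11:101552107). Palb2, which joins BRCA1 to BRCA2, had a listed position 61 bp upstream under the name Dctn5 at P28.5, and at P28 the nearest was 44848 bp away. Bard1, the partner of BRCA1, lies on the minus strand and was 224149 bp and 1433929 bp from the nearest listed position at P28 and P28.5. Brip1, a helicase that binds BRCA1, had the start of Brip1os listed 145 bp upstream at both ages.

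Among the genes of the small accessory proteins of strand exchange, Xrcc3 had 2 listed positions of Zfyve21 at both ages, the nearer 276 bp upstream. Rad51c had 3 positions named Tex14 at P28.5, 106 to 111 bp upstream, and at P28 the nearest listed position was 38283 bp away. Rad51b, Rad51d and Xrcc2 had none within the window at either age, and the last 2 lie on the minus strand. Rad52, a strand-annealing protein, was listed at P28.5 in 4 rows at 1 position (chr6:119902698), an annotated 5′ end. Rad54b, a DNA translocase of recombination, was listed at its start at P28 (chr4:11558920) and was 72962 bp from the nearest listed position at P28.5. The related Rad54l, on the minus strand, was not near a listed position at either age. Of the 17 homologous recombination genes, 5 (Brca2, Palb2, Rbbp8, Rad51c and Rad52) therefore had a position at P28.5 but not at P28, and 1 (Rad54b) the reverse. Among all protein-coding genes, 3.86% had a position at P28.5 alone and 6.37% at P28 alone. Palb2 and Rad51c, on the minus strand, were counted only through rows named after a neighbour.

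Of the damage signalling genes, 2 of 11 (18.2%) were listed by name at P28 and 1 of 11 (9.09%) at P28.5, near the 16.8% and 11.6% of all protein-coding genes. By position the counts were 4 of 11 (36.4%) and 5 of 11 (45.5%), against 17.3% and 14.8%. Mdc1, which binds phosphorylated histone H2AX and spreads the break signal, was listed at both ages in 7 rows at 6 positions between chr17:35841490 and chr17:35841787, each within 11 bp of an annotated 5′ end. Atm, the kinase activated by double-strand breaks, had 2 positions of its head-to-head neighbour Npat at both ages, at 192 and 219 bp upstream. Atr, the kinase activated by exposed strands, was not listed, and its nearest listed position was 2179 bp away at P28 (1700065D16Rik) and 238045 bp away at P28.5. The genes of its cofactor, Atrip, and of its activator, Topbp1, were 20668 bp and 678439 bp from the nearest listed position at P28. Atrip lies on the minus strand, whereas Atr and Topbp1 lie on the plus strand.

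The checkpoint clamp genes Rad9a, Rad9b and Hus1 and the loader gene Rad17 all lie on the minus strand, where the lists hold few starts. Whether a listed position lay near them is therefore no evidence of a difference in ARID2 between them. Rad9b, a clamp subunit, had 2 positions named Vps29 at both ages, at 107 and 143 bp upstream, whereas the clamp subunit genes Rad9a and Hus1 had none within the window. Rad17, which loads the clamp, had 2 positions named Taf9 at P28.5, at 282 and 546 bp upstream, and at P28 the nearest was 18789 bp away. Rad18, a ubiquitin ligase that acts at stalled forks, was listed by name at P28 at 1 position 213 bp upstream (chr6:112696904). That position is no annotated end of a Rad18 transcript. At P28.5 Rad18 was 380576 bp from a listed position. Trp53bp1, which favours end joining over resection, had 2 positions named Map1a at P28.5 that lie within a Trp53bp1 intron, 700 and 701 bp from one of its 5′ ends.

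Fanconi anaemia genes were listed by name in 2 of 8 cases (25%) at P28 and 1 of 8 (12.5%) at P28.5, against 16.8% and 11.6% of all protein-coding genes, the latter about the same. By position they numbered 3 of 8 (37.5%) and 2 of 8 (25%), against 17.3% and 14.8%. Fanci, one of the pair that is ubiquitinated when a crosslink is met, was listed at both ages at 2 annotated 5′ ends (chr7:79392312 and chr7:79392338). Its partner Fancd2, also on the plus strand, was 65481 bp from the nearest listed position at both ages. Fancl, the ubiquitin ligase that modifies that pair, was listed in 4 rows at 2 positions at P28 (chr11:26387084 and chr11:26387186), and at P28.5 the nearest listed position was 2721103 bp away. Fancm, the translocase that recruits the core complex, was not listed by name, but a position named Fkbp3 lay 16 bp upstream of its start at both ages (chr12:65074094). Fanca, Fancc, Fancf and Fancg, core complex genes on the minus strand, had no listed position within the window at either age.

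All 4 mismatch repair members had a listed position within 2000 bp at both ages, against 10.9% of all protein-coding genes. By name, 2 of 4 (50%) were listed at both ages, against 8.48%. Msh6, which recognises mismatches and small loops, was listed at its single annotated start (chr17:87975050). Msh3, which recognises larger loops, lies on the minus strand and was not listed by name at either age. Pms2, the endonuclease subunit of mismatch repair, was listed at 3 of its annotated 5′ ends, as shown in the sequence above. Pms1, a related protein, had the start of Ormdl1 listed 64 bp upstream (chr1:53297095). The positions given for Msh6, Pms1 and Pms2 were the same at P28 and P28.5.

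For nucleotide excision repair, 3 of 7 members (42.9%) were listed by name at P28 and 2 of 7 (28.6%) at P28.5, against 16.8% and 11.6% of all protein-coding genes. A listed position lay within the window of 3 of 7 (42.9%) at each age, against 17.3% and 14.8%. On the plus strand, 2 of 5 (40%) were listed by name at each age, against 26% and 20.4%. Ercc1, the partner of the nuclease that cuts on the 5′ side of a lesion, was listed at both ages at an annotated 5′ end (chr7:19345071), and Ercc2, a helicase of TFIIH, 22 bp inside its start (chr7:19382039). Xpc, which detects the distorted helix, had the start of Lsm3 listed 147 bp upstream at both ages. Xpa, which verifies damage, was listed by name at P28 at 2 positions that are not near its start, 1 at a 3′ end of the gene, 21089 bp from its nearest 5′ end (chr4:46175222), and 1 lying 6100 bp upstream (chr4:46202444). Ercc3, the other TFIIH helicase, and the nuclease genes Ercc4 and Ercc5 lie on the plus strand and had no listed position within the window at either age.

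Of the 6 base excision and strand-break members, all on the plus strand, 5 (83.3%) were in the P28 list and 6 (100%) in the P28.5 list. The shares of all plus-strand protein-coding genes were 26% and 20.4%. Ogg1, the glycosylase for oxidised guanine, was listed at the same 4 positions at both ages, all within 32 bp of an annotated 5′ end. Ung, the uracil glycosylase, was listed at 1 position at P28 (chr5:114131156) and at 3 positions at P28.5, which added chr5:114130361 and chr5:114130435. Parp1, the main sensor of strand breaks, was listed at both ages 84 bp inside its start, and at P28 also at a position 18501 bp upstream. Parp2, a related sensor, was listed at 2 positions at both ages, at its start and 30 bp inside a 5′ end. Xrcc1, the scaffold of strand-break repair, was listed 446 bp inside a 5′ end at both ages. Lig3, the ligase held by XRCC1, was listed in 7 rows at 4 positions at P28.5, and at P28 its nearest listed position was 691644 bp away.

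Among the end joining genes, 2 of 5 (40%) were listed by name and 3 of 5 (60%) had a listed position within the window, at each age. The shares of all protein-coding genes were 16.8% and 11.6% by name, and 17.3% and 14.8% by position. Xrcc6, a subunit of the Ku heterodimer that binds broken ends, was listed in 6 rows at 5 positions at both ages. Xrcc5, the gene of the other Ku subunit, was 229270 bp and 229649 bp from the nearest listed position at P28 and P28.5. Prkdc, the kinase recruited by Ku, was listed at an annotated 5′ end (chr16:15637866), and a position named Mcm4 lay 1 bp upstream of another of its 5′ ends. Xrcc4, the cofactor of DNA ligase IV, had the start of Tmem167 listed 59 bp upstream at both ages, whereas Lig4 was 766886 bp and 1030170 bp from the nearest listed position. Xrcc4 and Lig4 both lie on the minus strand, where the lists hold few starts.

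**Figure D4:**
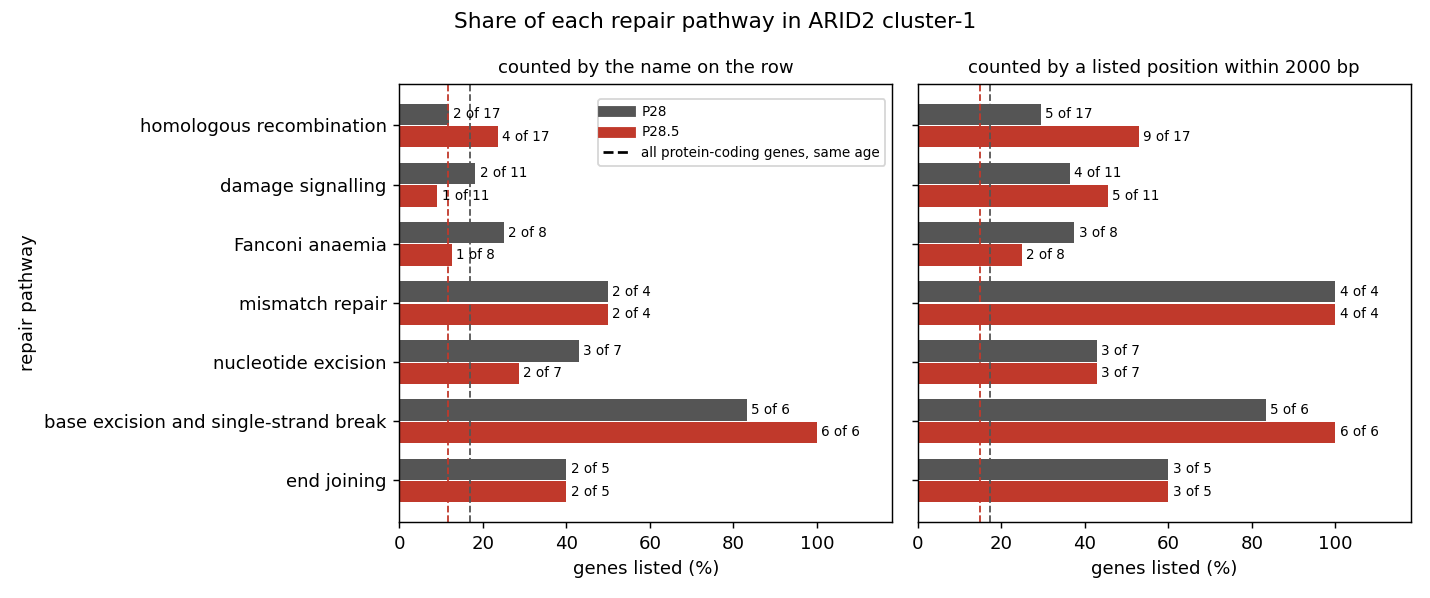
Percent of the genes of each repair pathway listed by name (left) or by a position in the list at most 2000 bp from a 5′ end (right), at P28 (grey) and P28.5 (red), with counts beside the bars and dashed lines at the share of all protein-coding genes of the same age. By position every pathway lies above the dashed lines at both ages, whereas by name homologous recombination at P28 (11.8%) and damage signalling at P28.5 (9.09%) lie below.

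Within several complexes some genes were near a listed position and others were not, as for Mre11a against Rad50 and Nbn, Fanci against Fancd2, Xrcc6 against Xrcc5 and Xrcc4 against Lig4. Of the unlisted partners, Nbn, Fancd2 and Xrcc5 lie on the plus strand, where starts are represented. Rad50 and Lig4 lie on the minus strand, so their absence is no evidence of a difference in ARID2 from their partners. Xrcc4, also on the minus strand, was counted only through the row named Tmem167. Pathways differed in strand, which moves with the counts by name, since 6 of 6 base excision members but 7 of 17 homologous recombination members and 3 of 11 damage signalling members lie on the plus strand. Among plus-strand genes alone, homologous recombination had 2 of 7 listed at P28 (28.6%) and 4 of 7 at P28.5 (57.1%), and damage signalling 1 of 3 (33.3%, Mdc1) at each age. The shares of all plus-strand protein-coding genes were 26% and 20.4%, so that homologous recombination at P28 was near the background. With 3 to 17 genes in such a group, a single gene moves a share by several percentage points, and differences between pathways were not tested.

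The listed positions near members were largely the same at both ages. The P28 list held 53 positions within 2000 bp of a member's 5′ end and the P28.5 list 66. Of these, 49 were shared, that is 92.5% of the P28 and 74.2% of the P28.5 positions. The member counts leave out 3 own-name positions farther away at P28, of which 0 were shared. For the complete lists, 3671 positions were shared, 51.4% of the 7144 positions at P28 and 70.7% of the 5193 at P28.5. The complete lists were not restricted to positions near a 5′ end. They include rows at 3′ ends of minus-strand transcripts, 1485 at P28 and 123 at P28.5. The shares for members and for the complete lists are therefore not like for like. The age-specific calls rest on separate clusterings of lists of different size, without a signal value to show how far a TSS lay from the cluster boundary.

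CpG content was high at the members' promoters. The observed to expected CpG ratio, taken 500 bp on either side of the outermost 5′ end, had a median of 0.767 in the 58 members (range 0.176 to 1.13), against 0.516 in all protein-coding genes. The upper 2 of 5 equal classes of this ratio held 46 members (79.3%), against 40% of all protein-coding genes. CpG content also moved with listing among all genes. Within plus-strand genes of those upper classes, 14 of 24 members (58.3%) were listed at P28 and again 14 of 24 (58.3%) at P28.5, against 42.9% and 40.1% of all such genes. The gap between members and background was thus smaller within these classes than over all plus-strand genes. Plus-strand members that were listed at an age had a median ratio of 0.773 (n = 20), compared with 0.729 (n = 10) in those not listed.

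**Figure D5:**
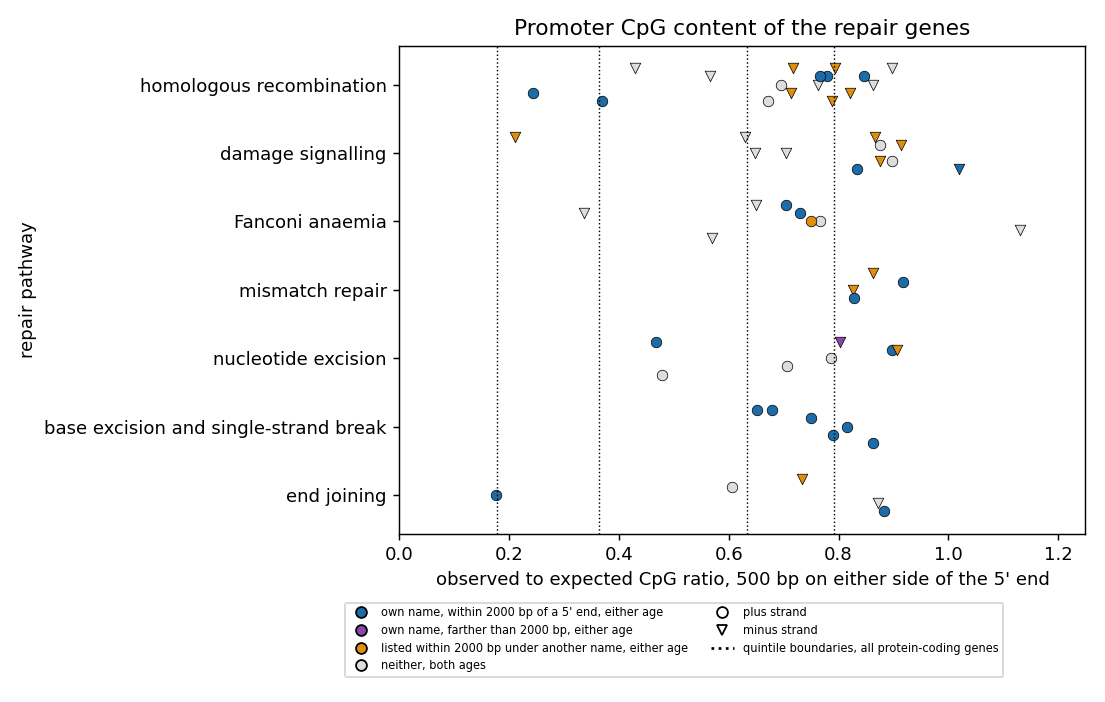
Observed to expected CpG ratio around the outermost 5′ end of each of the 58 repair genes, by pathway, with the listing status in colour, circles for plus-strand and triangles for minus-strand genes, and dotted lines at the boundaries of 5 equal classes of all protein-coding genes (0.178, 0.363, 0.633 and 0.792). Listed and unlisted members overlap over most of the range.

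In a few genes the outermost 5′ end and the listed one differed in sequence. Xrcc6 had a ratio of 0.176 at its outermost 5′ end but of 0.72 to 0.768 around its 5 listed positions. Rbbp8 had 0.244 at the outermost end and 0.966 at the listed position, and Rad52 had 0.369 and 0.894. Around the 53 member positions within the window at P28 the ratio ranged from 0.494 to 0.951, with a median of 0.809. The lowest value belonged to Ercc1. By contrast, the 3 own-name positions farther away had ratios of 0.336 and 0.341 for Xpa and 0.193 for Parp1. All positions of the P28 list had a median ratio of 0.723 and those of the P28.5 list 0.798.

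Promoter sequences were found for 47 of the 58 members. Rad50, Nbn, Rbbp8, Rad51d, Xrcc2, Rad54b, Rad9a, Fancd2, Ercc3, Xpc and Prkdc had no entry. Exact letters were searched on both strands of the 300-base windows, and a match is a description of letters and not of factor binding. The Sp/KLF box GGGCGG was present in 33 of 47 members (70.2%), against 46.3% of the promoters of 17492 protein-coding genes. The NF-Y box CCAAT was present in 26 (55.3%) against 39%, the ETS core CCGGAAG in 12 (25.5%) against 11.9%, and the NRF1 site GCGCATGC in 7 (14.9%) against 3.61%. The CRE, with the letters TGACGTCA, was present in 2 members (4.26%) against 2.34%, and the E-box CACGTG in 4 (8.51%) against 7.9%. The MYB site CAGTTG was present in 2 members (4.26%) against 12.4%. Between the plus-strand members listed at an age and those not listed, the Sp/KLF box was found in 14 of 17 (82.4%) and 3 of 7 (42.9%), and the ETS core in 3 of 17 (17.6%) and 2 of 7 (28.6%). The NF-Y box was found in 8 of 17 (47.1%) and 5 of 7 (71.4%), and the NRF1 site in 2 of 17 (11.8%) and 2 of 7 (28.6%). The E-box was found in 17.6% and 14.3%, and the CRE and the MYB site each in 5.88% and 0%. With 7 genes not listed, these contrasts rest on few genes and were not tested. Several of these motifs contain CG, in which the members' promoters are rich, and the part of base composition in the shares was not tested.

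Genes of the same pathways outside the member set were counted as well. Of 99 such genes, 22 (22.2%) were listed by name at P28 and 23 (23.2%) at P28.5, and 16 (16.2%) at both ages, against 16.8%, 11.6% and 8.48% of all protein-coding genes. Of the 49 on the plus strand, 21 (42.9%) and 22 (44.9%) were listed, against 26% and 20.4%. By position, 35 (35.4%) and 34 (34.3%) had a listed position within the window, against 17.3% and 14.8%. In base excision and strand-break repair, 2 of 20 (10%) of these other genes were listed by name at P28 and 3 of 20 (15%) at P28.5, against 16.8% and 11.6% of all protein-coding genes. On the plus strand these were 2 of 9 (22.2%) and 3 of 9 (33.3%), against 26% and 20.4%. At both ages 0 of 9 were listed, against 14.8% of all plus-strand protein-coding genes. By position, 6 of 20 (30%) had a listed position within the window at P28 and 7 of 20 (35%) at P28.5, against 17.3% and 14.8%. The high share by name of the 6 members in this pathway was thus not seen in its other genes. In nucleotide excision repair, 8 of 16 (50%) and 6 of 16 (37.5%) were listed, against 16.8% and 11.6%.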

How the data were processed

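The authors trimmed the CUT&RUN reads with TrimGalore, aligned them to mm10 with Bowtie2, handled alignments with SAMtools, and made coverage with deepTools after removing duplicates and blocklisted regions. Coverage was scaled with csaw, expressed relative to the control without primary antibody, averaged over replicates with WiggleTools, and clustered by k-means on ARID2 signal around RefSeq TSSs. The RefSeq release is not given in the sources used here. The deposited lists hold a position and a gene name for each cluster-1 TSS (unit: other, no signal value), with 11553 rows at P28 and 8514 at P28.5.

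Positions were used as deposited. Where they coincided with an end of a RefSeq transcript on GRCm38.p6, it was mostly the 1-based 5′ end of a plus-strand transcript, and 5170 rows at P28 and 4026 at P28.5 matched no annotated end. Names were matched to symbols or unique synonyms (99.8% of names at each age) with Python 3.11.15, and figures were drawn with matplotlib 3.10.9. The matching was tested on made-up lists with known answers. Samples were grouped by antibody and age, and BRG1 libraries were not used here. All members are accounted for, and values are given for members listed or with a listed position within 2000 bp. The members, gene lists and motifs were chosen with earlier results of these data known. No test was run, because the 2 lists hold no values per library, and signal tracks of single libraries were not analysed here. There were 5 alternatives planned and 1 added later. Some items are not reported here.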

Additional observations from a re-analysis of the deposited data

How the results depend on the processing

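Shares below are of members, with all other choices kept. Counting any listed position within 2000 bp moved the share of all members to 46.6% at P28, 55.2% at P28.5 and 41.4% at both ages. Homologous recombination moved to 29.4% and 52.9%, damage signalling to 36.4% and 45.5%, mismatch repair to 100% at each age, and Fanconi genes at P28.5 to 25%. A window of 500 bp, chosen after seeing the data, gave 46.6%, 53.4% and 41.4% for all members, 29.4% and 52.9% for homologous recombination, 36.4% at each age for damage signalling, and 100% and 25% for the other 2 pathways. Restricting the count to the plus strand gave 53.3%, 60% and 46.7% for all members, 28.6% and 57.1% for homologous recombination, 33.3% at each age for damage signalling, 50% and 25% for Fanconi, 100% for mismatch repair and 66.7% for end joining at each age. The shares of all protein-coding genes at P28, P28.5 and both ages were 17.3%, 14.8% and 10.9% within 2000 bp. Within 500 bp they were 16.2%, 14.3% and 10.5%, and on the plus strand by name 26%, 20.4% and 14.8%. Homologous recombination at P28 was below the background by name (11.8% against 16.8%) and above it within 2000 bp and 500 bp. On the plus strand it was near the background (2 of 7, 28.6% against 26%). Its share by name exceeded that of all annotated genes (8.23%). Damage signalling at P28.5 was below the background by name (9.09% against 11.6%) and above the share of all annotated genes (5.45%). It was above the background under the other 3 counts, on the plus strand through 1 of 3 genes. Matching by symbol alone, or requiring an own-name row within 2000 bp, left all 17 shares on the same side of the background and within 1.5-fold. No paired analysis was possible because the lists hold no values per library, and leaving out a library was not run for the same reason. Read depth behind single TSSs is not known.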

Other observations

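Some repair genes outside the member set belong to the same pathways as members. Rpa2, a subunit of the protein that coats exposed strands, Swi5 and Swsap1 were listed by name at both ages, and Exo1, a resection nuclease, at P28 but not at P28.5. The meiosis-specific Dmc1, Msh4 and Msh5 had none within the window at either age, and all 3 lie on the minus strand, where the lists hold few starts. Rad1, which completes the checkpoint clamp, and Babam1 were listed at both ages. In damage signalling, Chek2, Clspn, Rnf8 and Tipin were listed at P28.5 but not at P28. In nucleotide excision repair, Ddb1, Ercc6, Rad23b, Gtf2h1, Gtf2h5 and Uvssa were listed at both ages. These genes were named after their values were seen.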
